A study of Mus musculus with 18 samples.

Results

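The genes described here are the chromatin remodelling and histone-modifying regulators measured in primary hippocampal cells plated on a coating of chondroitin sulphate proteoglycans (CSPGs), from mice with and without *Fibcd1*. They were chosen by a rule on gene names that uses no measured value, but the rule was set with earlier results of these data known. The names taken are those of the SWI/SNF-related (Smarc) and chromodomain helicase (Chd) families and the histone deacetylases (Hdac) and acetyltransferases (Kat). They are also those of the lysine methyltransferases (Kmt, Setd, Ehmt) and demethylases (Kdm) and the Brd bromodomain genes. The rest are the Dnmt and Tet genes of DNA methylation, the methyl-CpG-binding domain (Mbd) genes and the Arid genes. The names matched 103 genes of the table, 6 of them sex-linked and left out, so 97 autosomal genes of 12012 were followed. The match is by name, so it also took *Chd3os*, the gene beside *Chd3*, which is in none of the complexes below.

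FIBCD1 is a transmembrane receptor that binds the glycosaminoglycan chains of CSPGs, which are components of the extracellular matrix of the brain. The KO mice carry the *Fibcd1*tm1Lex allele (fibcd1 -/- in the labels) and the WT mice do not, and both are on the C57BL/6J background. Primary cells were prepared from E18.5 hippocampus, and poly-A RNA was sequenced in bulk as single reads after 3 days *in vitro* (the study's appendix gives 2). The comparison is between the KO_CSPG and WT_CSPG cultures, with 4 libraries each (replicates A to D), each of them a separate preparation of cells. Every culture compared here was grown on CSPGs, so the values compare the genotypes on that coating and do not measure the response to it. The knockout is in the germline and not limited to a cell type, and no library is labelled with the sex or litter of its embryos.

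Reads over the genes of the table numbered between 10099564 and 11174615 in the WT_CSPG libraries and between 10541445 and 11647202 in the KO_CSPG libraries. *Fibcd1* itself was at 54.33, 70.39, 60.13 and 182.4 normalised counts in WT_CSPG and at 0.9696, 0.9324, 7.156 and 4.74 in KO_CSPG, in the order of the replicates A to D, so the targeted gene matched the labels. A normalised count is a gene's reads over the size factor of the library. The labels call the cells neurons, and the sums of 8 neuronal genes lay between 84687.8 and 90324.1 in WT_CSPG and between 84416.5 and 86896.8 in KO_CSPG, but astrocyte and radial glia genes were also high, with sums of 37054.2 to 45231.3 and 42920.3 to 47589.8. The sums of 8 oligodendrocyte lineage genes did not overlap, with 1267.5 to 1600.6 in WT_CSPG and 1908.3 to 2082.8 in KO_CSPG, and all 8 genes had a fold change above 1. In bulk RNA, fewer cells of a type and less RNA per cell cannot be told apart. The Y-linked genes, summed over 4, were at 1557.3 to 1935.2 in WT_CSPG and at 878.3 to 1091.8 in KO_CSPG, and *Xist* was higher in KO_CSPG (log2 fold change 0.67, adjusted p = 0.0367 in limma), so genes of both sex chromosomes moved with the genotype. The part of the glial and sex differences in the values below was not tested gene by gene.

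Nucleosome remodellers use ATP to slide, eject or exchange nucleosomes, and they work as large complexes whose subunit genes often come in families of close relatives. In neurons, subunits of the BAF complex are exchanged as progenitors leave the cell cycle. Acetyltransferases and deacetylases set and remove acetyl groups on histone tails, bromodomain proteins bind them, and methyltransferases and demethylases do the same for methyl groups. DNA methyltransferases methylate cytosines, TET enzymes oxidise the mark and methyl-CpG-binding proteins read it.

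Of the 97 genes, 3 were lower and 1 was higher in KO_CSPG than in WT_CSPG. *Hdac4*, a class IIa histone deacetylase that shuttles between cytoplasm and nucleus, *Kdm5b*, a demethylase of histone H3 lysine 4, and *Tet2*, an enzyme that oxidises 5-methylcytosine, were the lower ones. *Hdac4* fell by 17.1%, *Kdm5b* fell by 9.98% and *Tet2* fell by 12.8%. *Mbd5*, a methyl-CpG-binding domain gene linked to intellectual disability, was the higher one, by 14.2%. The 4 genes are 4.12% of the group, beside 2.88% of all 12012 genes called by the same test, which was limma on log2(value + 1) with Benjamini-Hochberg adjustment over the whole table and a threshold of 0.05 on the adjusted p. By direction, the shares were 3.09% against 1.79% for lower and 1.03% against 1.09% for higher genes, so the count called is near the background.

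Most of the remaining differences were small and had the same sign. The log2 fold change was below 0 in 72 of the 97 genes, or 74.2%, beside 49.9% of all genes, and its median was -0.05 beside 0.0002 over the whole table. All 97 values lay between -0.27 and 0.19, and 87 of the genes had a 95% interval of the log2 fold change that stayed within 0.3 of 0 on both sides. The genes whose interval went further were *Hdac4*, *Tet2*, *Setd1b*, *Setd6*, *Hdac1*, *Chd1l*, *Mbd4*, *Arid3a*, *Arid3b* and *Arid5a*. Without adjustment, 26 genes were lower with p under 0.05, which is 26.8% of them beside 8.67% of all genes, and 1 was higher, which is 1.03% beside 7.51%. The 4 KO_CSPG libraries lay wholly below the 4 WT_CSPG libraries for 14 genes, or 14.4% beside 5.17%, and wholly above them for *Mbd5* alone, or 1.03% beside 4.05%. Together the 15 genes without overlap were 15.5% of the 97, beside 9.22% of all genes.

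**Figure D1:**
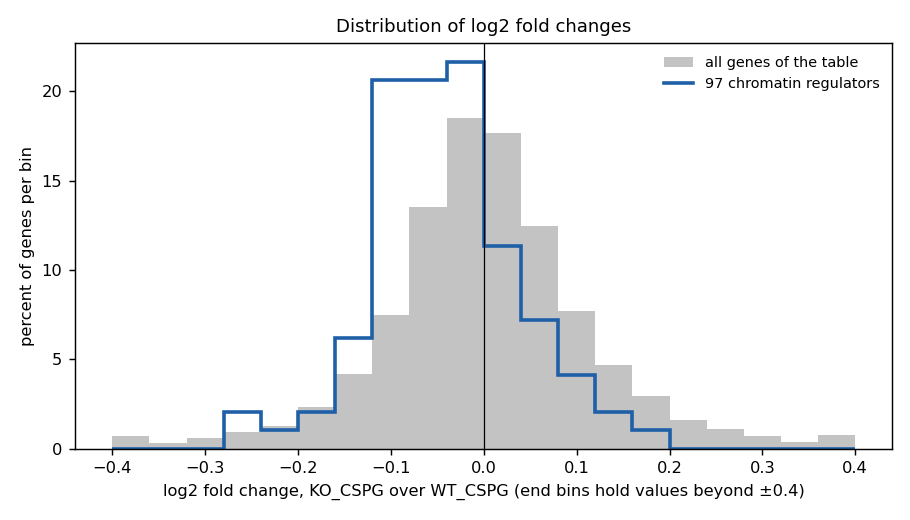
Share of genes, in percent, by log2 fold change of KO_CSPG against WT_CSPG, for the 97 chromatin genes and for all 12012 genes of the table. The chromatin genes lie between -0.27 and 0.19, and their bars are shifted to the left of those of all genes, with a median of -0.05 beside 0.0002.

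The same values can be read library by library, which describes the shift again and is not further support for it. The median of the 97 genes, taken as each gene's deviation from its own mean over the 8 libraries on the log2 scale, was 0.0165, 0.0309, 0.0153 and 0.0203 in WT_CSPG A to D and -0.0357, -0.0105, -0.0304 and -0.0049 in KO_CSPG A to D. All 4 WT_CSPG medians were above 0 and all 4 KO_CSPG medians below it, with KO_CSPG D the nearest to 0. Over all genes, the library medians stayed within 0.0033 of 0. Between 58 and 70 of the 97 genes were above their own mean in a WT_CSPG library, and between 27 and 47 in a KO_CSPG library. The genes share their libraries, so these counts are a description and not 97 independent observations.

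**Figure D2:**
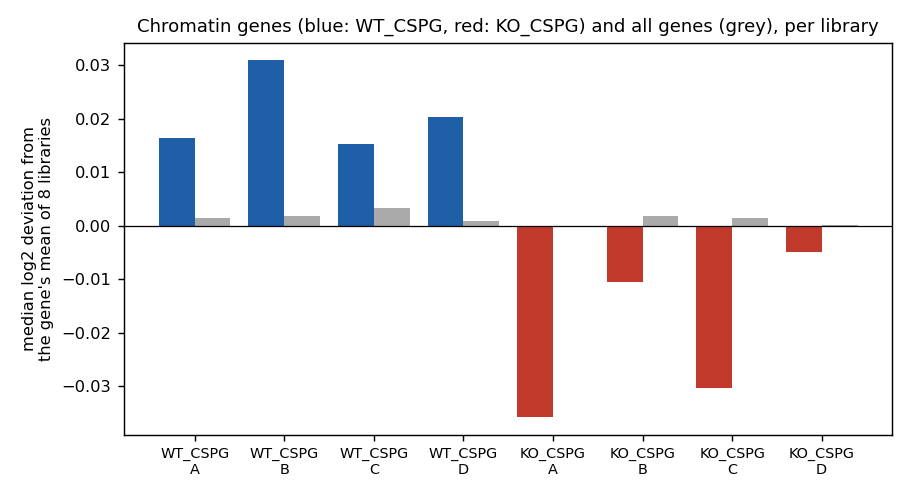
Median log2 deviation from each gene's own mean over the 8 libraries, 1 bar per library, for the 97 chromatin genes (blue for WT_CSPG, red for KO_CSPG) and for all genes (grey). The 4 WT_CSPG libraries lie between 0.0153 and 0.0309 and the 4 KO_CSPG libraries between -0.0357 and -0.0049, while all genes stay near 0.

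The genes were long. Their median length in the table was 7832 bases beside 4486 for all genes, and 55 of the 97 were 6830 bases or longer, as were 3003 of all genes. Log2 fold changes leaned downwards with length over the table as a whole, with 41.6% of the genes up to 2877 bases and 56.8% of those from 6830 bases on below 0. Among the longest genes, 45 of the 55 chromatin genes were below 0, and their median log2 fold change was -0.05 beside -0.01 for all genes of that length. With the trend on length taken out of each library, 70 of the 97 genes were below 0 and the median of the 97 was -0.04, an alternative chosen after the data had been seen.

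**Figure D3:**
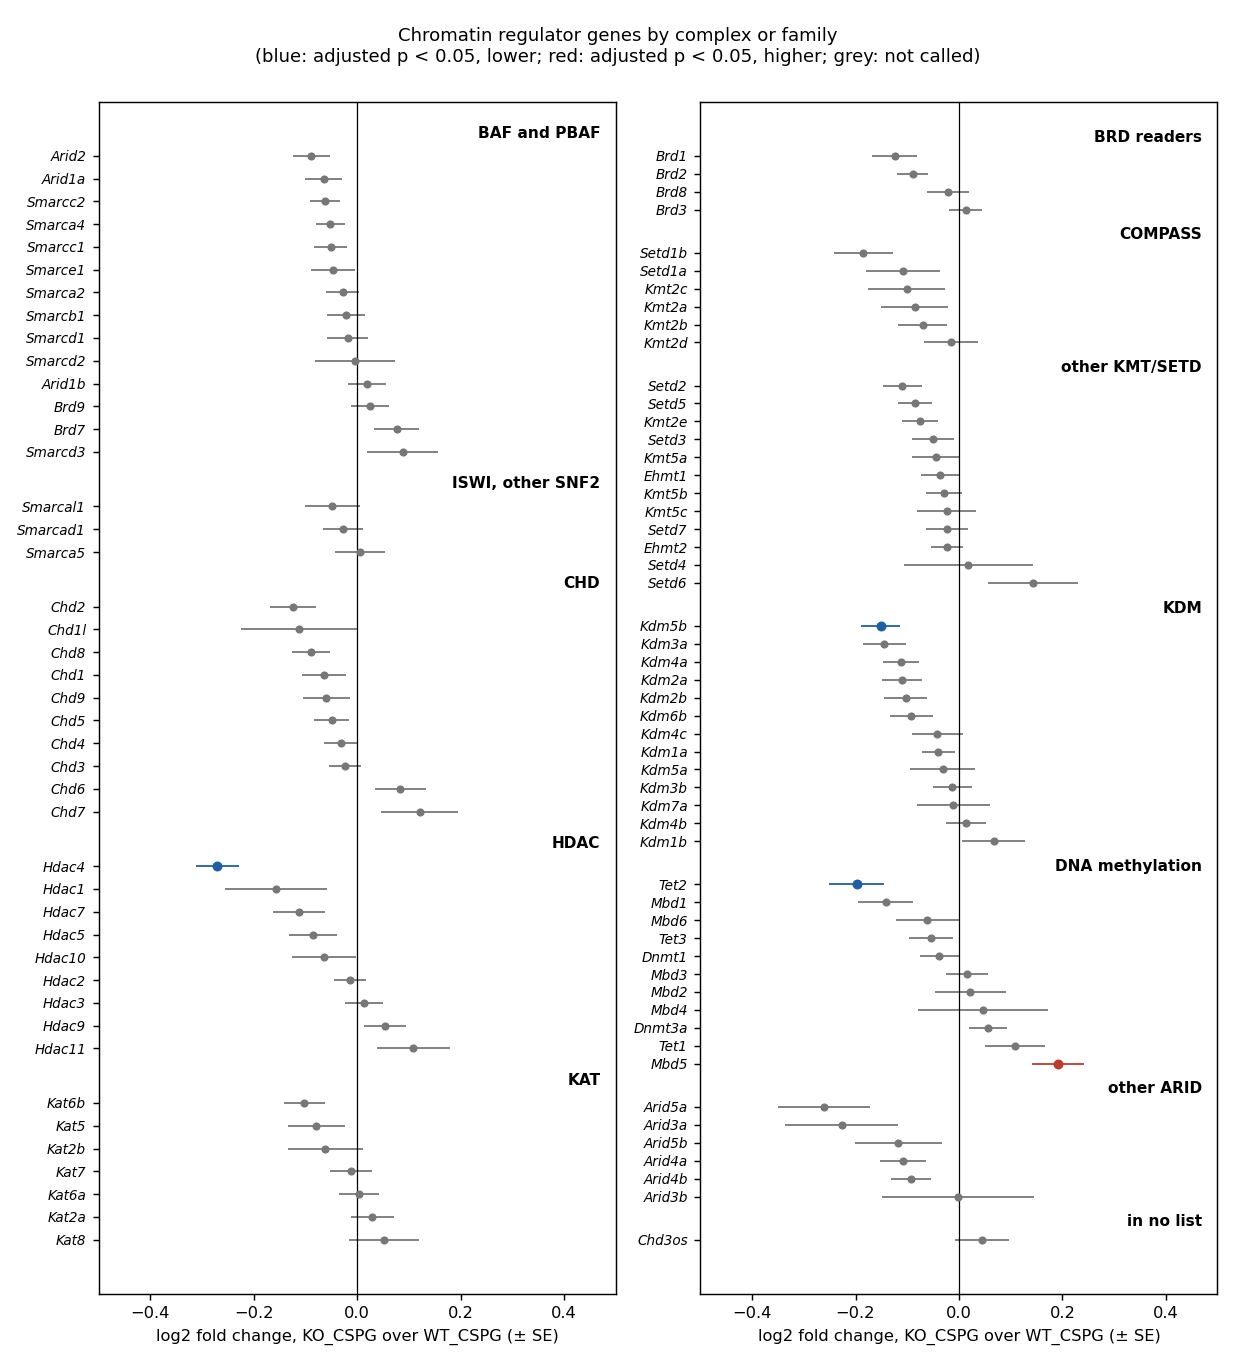
Log2 fold change of KO_CSPG against WT_CSPG for the chromatin genes drawn, with bars for the SE, grouped by complex or enzyme family; blue and red points are the genes called lower and higher, and *Brd7* and *Brd9* stand with BAF. *Hdac4*, *Kdm5b* and *Tet2* are marked below 0 and *Mbd5* above it, and all 6 COMPASS genes lie below 0.

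Among the 9 deacetylase genes, *Hdac4* had the lowest fold change and was the only one called. *Hdac4* (ENSMUSG00000026313) lies on the minus strand at chr1:91928779-92195699 of mm10. Its normalised counts were 1096.1, 1032.0, 1036.8 and 1003.8 in WT_CSPG and 856.2, 870.0, 837.3 and 890.2 in KO_CSPG. There was no overlap, and the highest KO_CSPG library was well below the lowest WT_CSPG library. The means were 1042.2 ± 38.78 and 863.4 ± 22.32 (SD, n = 4 each), a log2 fold change of -0.27 ± 0.04 (SE; 95% interval -0.36 to -0.19; adjusted p = 0.000259, limma). Of the exon bases annotated for *Hdac4*, 22.4% are shared with the antisense gene *Gm26720*, and since the counting is not stated to use strand, reads of the pair cannot be told apart there.

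The 250 bases before the RefSeq start of *Hdac4*, chr1:92180342-92180591 on the minus strand of GRCm38.p6, are shown because this was the gene with the smallest p of the 97. They are printed 5′ to 3′ with capitals marking the half-site TGACG of the cAMP response element and the GC box GGGCGG, each searched on both strands, as was the AP-1 motif TGANTCA.
Hdac4: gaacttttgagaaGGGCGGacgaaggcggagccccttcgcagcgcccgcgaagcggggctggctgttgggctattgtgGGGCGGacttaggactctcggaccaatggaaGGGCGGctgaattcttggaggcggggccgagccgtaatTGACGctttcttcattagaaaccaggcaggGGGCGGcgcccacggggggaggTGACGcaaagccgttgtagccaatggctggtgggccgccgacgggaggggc
This window holds 2 half-sites, 4 GC boxes and no AP-1 motif, and the start lies 15358 bases inside the gene's start in the table. Of all 32851 windows of this length before RefSeq starts, 17.8% hold TGACG, 32.7% hold GGGCGG and 6.75% hold TGANTCA. A match is a run of letters and says nothing of binding.

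The other class IIa genes did not share the change of *Hdac4* at the threshold. *Hdac5* was at 2158.8, 1863.7, 2153.0 and 2070.8 in WT_CSPG and at 1872.4, 1872.3, 2090.6 and 1930.2 in KO_CSPG, with a log2 fold change of -0.09 (adjusted p = 0.383, limma), and its groups overlapped. *Hdac7* was at 652.0, 640.0, 681.8 and 634.9 in WT_CSPG and at 552.7, 621.9, 621.6 and 619.1 in KO_CSPG. Its groups did not overlap, but the difference of -0.11 did not pass the adjustment (adjusted p = 0.258). *Hdac9* had a log2 fold change of 0.05 (adjusted p = 0.567), with a 95% interval of -0.03 to 0.14. The difference between these changes and that of *Hdac4* was not itself tested. Over the 9 deacetylase genes, 6 were below 0 and 3 above, with a median of -0.06, and *Hdac11* had the highest value of 0.11 (adjusted p = 0.491). *Hdac11* shares 17.9% of its exon bases with antisense genes.

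*Hdac1* and *Hdac2* encode the class I enzymes of the NuRD, SIN3 and CoREST corepressors. *Hdac2* had a log2 fold change of -0.01 with a 95% interval of -0.08 to 0.05, whereas *Hdac1* had -0.16 with an interval of -0.36 to 0.05, and neither was called. Among the 7 NuRD genes, none was called, 5 were below 0 and the median was -0.02. They ran from *Hdac1* to *Mbd2*, a methyl-CpG reader of the complex, at 0.02 (adjusted p = 0.916). Of the 7 listed NuRD partner genes, which include the MTA scaffolds, none was called either.

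Corepressor partners were measured as well, from lists of genes that the name rule does not take. Of 135 listed partner genes of the remodelling and modifying complexes, 133 had a value, and 4 of these, or 3.01%, were lower and none was higher in KO_CSPG. Over all genes, 2.88% were called in either direction, 1.79% lower and 1.09% higher, so the share of partner genes called is near the background. Of the 133 partner genes, 85 had a log2 fold change below 0, where 49.9% of all genes did. Their median was -0.0183, beside 0.0002 over all genes. *Ncor1*, a nuclear receptor corepressor that holds HDAC3, was at -0.02 (adjusted p = 0.912, limma), and *Hdac3* at 0.01 (adjusted p = 0.913) with a 95% interval of -0.06 to 0.09. *Sin3a*, the scaffold of the SIN3 complex, was lower in every KO_CSPG library than in every WT_CSPG library, but its difference of -0.11 had an adjusted p of 0.179.

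**Figure D4:**
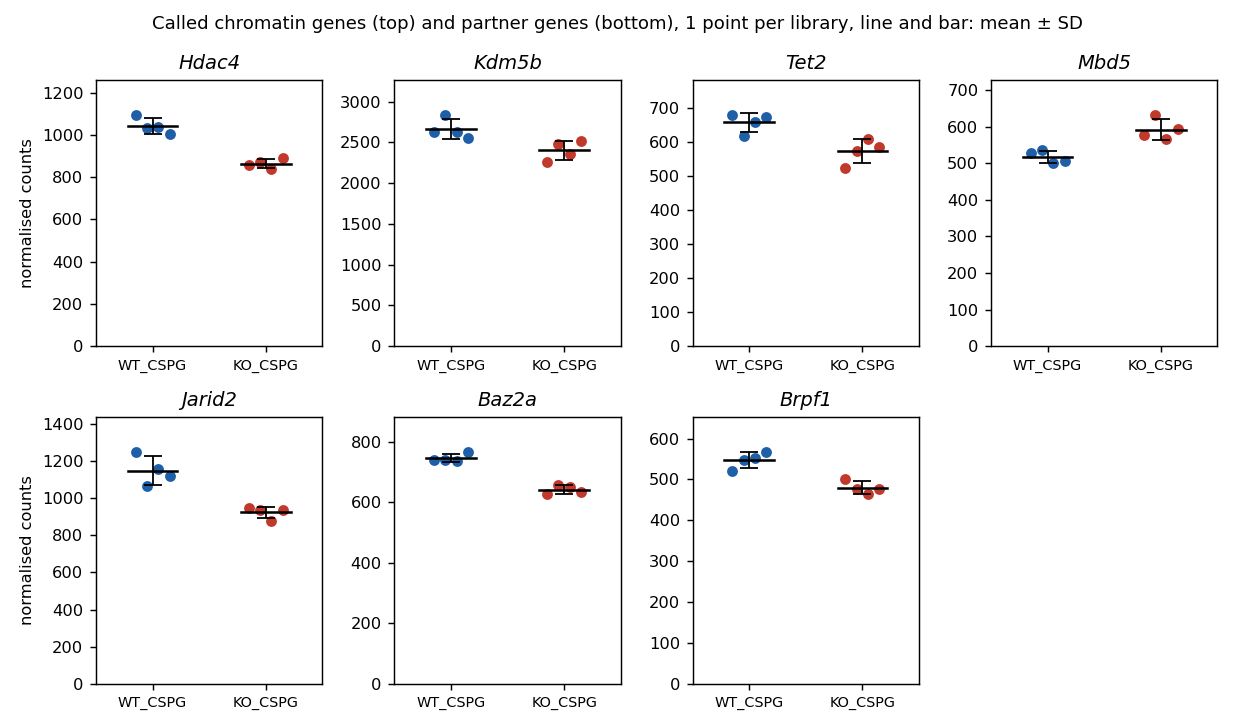
Normalised counts of the 4 called chromatin genes (top) and of the called partner genes *Jarid2*, *Baz2a* and *Brpf1* (bottom), 1 point per library, with lines and bars for the mean ± SD of 4 libraries per group. The KO_CSPG points lie below the WT_CSPG points in every panel but that of *Mbd5*, where they lie above.

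Of the 13 histone demethylase genes measured, 6 were below 0 at an unadjusted p under 0.05, where 8.67% of all genes were. In all, 11 of the 13 were below 0, and the median was -0.04. *Kdm5b* was the only one called. It encodes an enzyme that removes methyl groups from H3 lysine 4, lies at chr1:134560171-134635285 on the plus strand of mm10 (ENSMUSG00000042207) and was at 2633.1, 2841.6, 2631.2 and 2557.9 in WT_CSPG. In KO_CSPG it was at 2256.3, 2476.5, 2351.3 and 2517.0. Both groups stood apart, although KO_CSPG D came close to WT_CSPG D. The means were 2666.0 ± 122.2 and 2400.3 ± 119.1 (SD, n = 4 each), and the log2 fold change was -0.15 ± 0.04 (SE, adjusted p = 0.0275, limma). Its close relative *Kdm5a* was at -0.03 (adjusted p = 0.864), with a 95% interval of -0.16 to 0.10.

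The 250 bases before the RefSeq start of *Kdm5b*, chr1:134559928-134560177 on the plus strand, are given with the same marks.
Kdm5b: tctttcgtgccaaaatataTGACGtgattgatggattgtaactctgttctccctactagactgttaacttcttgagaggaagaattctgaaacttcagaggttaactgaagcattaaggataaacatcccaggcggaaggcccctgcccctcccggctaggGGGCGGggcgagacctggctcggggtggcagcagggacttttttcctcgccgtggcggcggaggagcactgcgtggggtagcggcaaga
They hold 1 half-site TGACG and 1 GC box.

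The next demethylases in order of p lay just outside the threshold. *Kdm3a*, which removes methyl groups from H3 lysine 9, was at 956.1, 918.3, 937.8 and 890.7 in WT_CSPG and at 870.7, 837.3, 806.6 and 836.1 in KO_CSPG, with a log2 fold change of -0.14 ± 0.04 (SE, adjusted p = 0.0633, limma). *Kdm4a*, which acts on lysines 9 and 36, was at 2208.9, 2224.4, 2282.0 and 2225.7 in WT_CSPG and at 1995.5, 2042.0, 2038.5 and 2199.4 in KO_CSPG, with a log2 fold change of -0.11 ± 0.03 (adjusted p = 0.0787). Both had groups that did not overlap, and in *Kdm4a* the library KO_CSPG D was close to the WT_CSPG values. *Kdm2a*, *Kdm2b* and *Kdm6b*, the last a demethylase of H3 lysine 27, were at -0.11, -0.10 and -0.09 with overlapping groups and adjusted p of 0.137, 0.205 and 0.278. The highest of the 13 was *Kdm1b* at 0.07 (adjusted p = 0.647). *Kdm4d* and *Kdm8* were listed and had no value in the table.

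All 6 genes of the COMPASS family, the methyltransferases of H3 lysine 4, were below 0, with a median of -0.09, and none was called. *Setd1b* had the lowest value, with 654.1, 734.2, 585.8 and 662.4 in WT_CSPG and 576.0, 572.5, 610.3 and 553.6 in KO_CSPG. The groups overlapped, since WT_CSPG C was below KO_CSPG C, and the log2 fold change was -0.19 ± 0.06 (SE, adjusted p = 0.0835, limma). *Kmt2d* was the nearest to 0, at -0.02 (adjusted p = 0.925). *Setd1a* was at -0.11 (adjusted p = 0.498), and 52.3% of its exon bases are shared with other genes. None of the 9 COMPASS partner genes, such as *Wdr5* and *Ash2l*, was called, and their median was -0.01.

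Of the 12 other methyltransferase genes, 10 were below 0 and none was called. *Setd2*, which trimethylates H3 lysine 36, was the lowest, with 1751.3, 1907.1, 1766.1 and 1772.2 in WT_CSPG and 1679.4, 1739.9, 1577.4 and 1675.1 in KO_CSPG (log2 fold change -0.11, adjusted p = 0.124, limma). The groups did not overlap, and they were next to each other, with WT_CSPG A just above KO_CSPG B. *Setd5* was in the same position at -0.09 (adjusted p = 0.181). *Setd6* was the highest, at 0.14 (adjusted p = 0.452). *Setd4* was at 0.02 with a standard error of 0.12, and it had under 100 normalised counts in every library. *Ehmt1* and *Ehmt2*, which encode the paired methyltransferases of H3 lysine 9, were at -0.04 and -0.02, with adjusted p of 0.716 and 0.797.

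The list of DNA methylation and methyl-CpG-binding domain genes, the last taken by name, held a call in each direction. Of 13 listed, 11 had a value, with 5 below and 6 above 0, and the median was 0.02. *Tet2* (ENSMUSG00000040943, chr3:133463679-133545139, minus strand) was at 680.2, 617.3, 657.5 and 672.6 in WT_CSPG and at 522.6, 574.4, 609.3 and 585.9 in KO_CSPG. Every KO_CSPG library was lower, and only a small gap separated WT_CSPG B from KO_CSPG C. The means were 656.9 ± 28.05 and 573.0 ± 36.61 (SD, n = 4 each), and the log2 fold change was -0.20 ± 0.05 (SE, adjusted p = 0.0372, limma). *Tet1* was at 0.11 with a 95% interval of -0.01 to 0.23 (adjusted p = 0.37), and *Tet3* at -0.05 with an interval of -0.14 to 0.03 (adjusted p = 0.582). The interval of *Tet2*, -0.31 to -0.09, did not meet that of *Tet1* and met that of *Tet3*; the differences between the 3 genes were not tested.

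*Mbd5* (ENSMUSG00000036792, chr2:48949508-49325405, plus strand) was at 527.7, 536.1, 501.4 and 506.5 in WT_CSPG and at 576.0, 633.1, 566.4 and 592.5 in KO_CSPG. Every KO_CSPG library was above every WT_CSPG library. The means were 517.9 ± 16.61 and 592.0 ± 29.47 (SD, n = 4 each), and the log2 fold change was 0.19 ± 0.05 (SE, adjusted p = 0.0372, limma). Its relatives did not pass the test. *Mbd1*, a reader of methylated CpG, was at -0.14 (adjusted p = 0.163) with groups that did not overlap, and *Mbd6* was at -0.06 (adjusted p = 0.698). The maintenance methyltransferase *Dnmt1* was at -0.04 and the de novo methyltransferase *Dnmt3a* at 0.06, with 95% intervals of -0.12 to 0.04 and -0.02 to 0.13. *Dnmt3b* and *Dnmt3l* had no value in the table. *Mbd5* lies on the same chromosome as the targeted *Fibcd1* (chr2:31813290-31846005). A contribution to its value of sequence carried along with the targeted allele was not tested.

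The windows before the RefSeq starts of *Mbd5* and *Tet2* are shown as the gene called higher and the third gene called lower. They are chr2:48949258-48949507 on the plus strand, at the nearer of 2 starts to the start in the table, and chr3:133544391-133544640 on the minus strand.
Mbd5: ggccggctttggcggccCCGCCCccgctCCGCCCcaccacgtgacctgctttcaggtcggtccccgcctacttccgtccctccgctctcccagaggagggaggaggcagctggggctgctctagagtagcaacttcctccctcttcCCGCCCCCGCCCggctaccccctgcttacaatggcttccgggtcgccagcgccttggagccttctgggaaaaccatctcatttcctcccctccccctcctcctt
Tet2: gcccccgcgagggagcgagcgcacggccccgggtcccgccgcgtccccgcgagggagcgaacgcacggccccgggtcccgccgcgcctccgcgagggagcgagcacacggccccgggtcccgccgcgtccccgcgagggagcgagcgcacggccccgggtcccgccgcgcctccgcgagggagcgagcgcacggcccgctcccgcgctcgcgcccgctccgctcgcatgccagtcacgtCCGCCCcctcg
Neither holds TGACG or TGANTCA, and they hold 4 and 1 GC boxes, in which CCGCCC is the GC box read on the other strand. The *Tet2* window is the richest of the 4 in CpG, with 51 CpG and 83.6% G and C, beside medians of 6 and 52.4% over all windows. The RefSeq start of *Tet2* lies 749 bases from the start in the table.

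The BAF and PBAF complexes, the SWI/SNF remodellers, had no called gene among 14 measured. Their median was -0.03, with 10 below and 4 above 0. *Arid2*, the subunit that defines PBAF, was the lowest, with 1390.8, 1439.2, 1392.7 and 1413.5 in WT_CSPG and 1352.6, 1351.1, 1285.0 and 1312.0 in KO_CSPG. All KO_CSPG libraries were lower, but the log2 fold change of -0.09 ± 0.04 (SE) had an adjusted p of 0.202. The ATPase *Smarca4* (BRG1) and the scaffold *Smarcc2* (BAF170) were at -0.05 and -0.06, with 95% intervals of -0.11 to 0.01 and -0.12 to -0.0037, and *Smarcd3* was the highest at 0.09 (adjusted p = 0.58). *Smarcd3* shares 48.2% of its exon bases with antisense genes. None of the 16 BAF partner genes was called.

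Of the 10 CHD remodellers, 8 were below 0, with a median of -0.05, and none was called. *Chd2* was the lowest at -0.12 (adjusted p = 0.137) and *Chd7* the highest at 0.12 (adjusted p = 0.455), with a 95% interval of -0.03 to 0.27. *Chd2* shares 19.3% of its exon bases with other genes. *Chd8*, a gene linked to autism, was at -0.09 (adjusted p = 0.215) with overlapping groups. The 3 ISWI and other SNF2 genes ran from -0.05 for *Smarcal1* to 0.005 for *Smarca5*, the ATPase of the ISWI complexes. Among the ISWI partners, *Baz2a*, a subunit of the nucleolar remodelling complex that silences ribosomal DNA, was at 740.8, 739.7, 737.1 and 766.4 in WT_CSPG and at 628.3, 657.4, 649.2 and 632.3 in KO_CSPG. No library overlapped with the other group, and its log2 fold change was -0.22 ± 0.04 (SE, adjusted p = 0.00517, limma).

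Acetyltransferases and bromodomain readers had no called gene. The 7 measured KAT genes had a median of -0.01 and ran from *Kat6b*, a MYST family acetyltransferase, at -0.10 (adjusted p = 0.175) to *Kat8* at 0.05 (adjusted p = 0.779). *Kat14* is in the table under its older symbol *Csrp2bp*, which the rule does not take, at 0.03 (adjusted p = 0.903). *Brpf1*, the scaffold of the complexes built on *Kat6a* and *Kat6b*, was the partner called, with 521.4, 548.0, 552.8 and 567.6 in WT_CSPG and 501.3, 477.4, 465.2 and 475.9 in KO_CSPG. The groups did not overlap, and the log2 fold change was -0.19 ± 0.05 (SE, adjusted p = 0.0387, limma). Of the 7 BRD genes, 3 were below 0 with an unadjusted p under 0.05, beside 8.67% of all genes, among them *Brd1* and *Brd2*. *Brd1*, whose protein joins acetyltransferase complexes, was at -0.12 (adjusted p = 0.123). *Brd2*, a BET reader of acetylated histones, was at 4388.6, 4256.0, 4513.6 and 4286.3 in WT_CSPG and at 3967.8, 4077.5, 4092.3 and 4255.6 in KO_CSPG. Its groups were separated by less than 1 normalised count between WT_CSPG B and KO_CSPG D, and the log2 fold change was -0.09 (adjusted p = 0.114). *Brd7* was the highest at 0.08 (adjusted p = 0.414).

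Polycomb genes, whose products methylate H3 lysine 27 and ubiquitinate histone H2A, were measured as partners, and 1 of 27 was called. *Jarid2*, an accessory subunit of the methylating complex PRC2 with a JmjC domain like that of the demethylases, was at 1250.7, 1067.8, 1157.0 and 1120.0 in WT_CSPG and at 946.4, 934.3, 877.1 and 936.6 in KO_CSPG. The groups did not overlap, and the log2 fold change was -0.31 ± 0.05 (SE, adjusted p = 0.000142, limma). The core subunits of PRC2 were not called. *Ezh2*, its methyltransferase, was at -0.09 (adjusted p = 0.311), *Eed* at -0.01 (adjusted p = 0.969) and *Suz12* at 0.08 (adjusted p = 0.308), the last with every KO_CSPG library above every WT_CSPG library. The median of the 27 genes was -0.01, with 17 below and 10 above 0.

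The remaining ARID genes, which bind DNA through the AT-rich interaction domain, were all below 0. The 6 measured had a median of -0.11, and 4 of them had an unadjusted p under 0.05, beside the same 8.67% of all genes. *Arid5a* had the lowest value, with 225.7, 191.7, 272.5 and 219.1 in WT_CSPG and 188.1, 193.0, 197.3 and 174.4 in KO_CSPG. The spread in WT_CSPG was wide and the groups overlapped, so that a log2 fold change of -0.26 ± 0.09 (SE), nearly that of *Hdac4*, had an adjusted p of 0.121. *Arid4a* and *Arid4b*, which encode subunits of the SIN3 corepressor, were at -0.11 and -0.09 (adjusted p = 0.22 and 0.228) with groups that did not overlap. *Arid3b* was at -0.0019 with a standard error of 0.15, and *Arid3a* at -0.23 (adjusted p = 0.306).

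Levels between genes were compared as normalised counts per kilobase of the gene length in the table, averaged over the 8 libraries. They spanned 118.2-fold, from 8.511 for *Arid3b* to 1006.2 for *Smarcc2*, with a median of 112.2 beside 95.22 for the whole table. After *Smarcc2*, the highest were *Chd3* at 908.2, *Hdac2* at 729.0, *Smarca4* at 678.5 and *Mbd3* at 581.5. *Mbd3* and the next gene, *Brd2* at 580.6, overlapped over the libraries. After *Arid3b*, the lowest were *Arid5a* at 16.57, *Setd4* at 18.27, *Mbd4*, a glycosylase that repairs mismatches at CpG sites, at 19.18 and *Arid3a* at 19.98, and the ranges of these 4 over the libraries overlapped. The genes called were not the most used, with *Kdm5b* at 153.0, *Hdac4* at 60.25, *Tet2* at 36.45 and *Mbd5* at 28.27. The lengths are those of the table, and some ranks among the 97 changed with exon lengths from GENCODE M21. *Mbd1* moved from 28 to 68, *Kdm3b* from 31 to 63 and *Brd9* from 7 to 25, while *Chd1* moved up from 68 to 48.

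**Figure D5:**
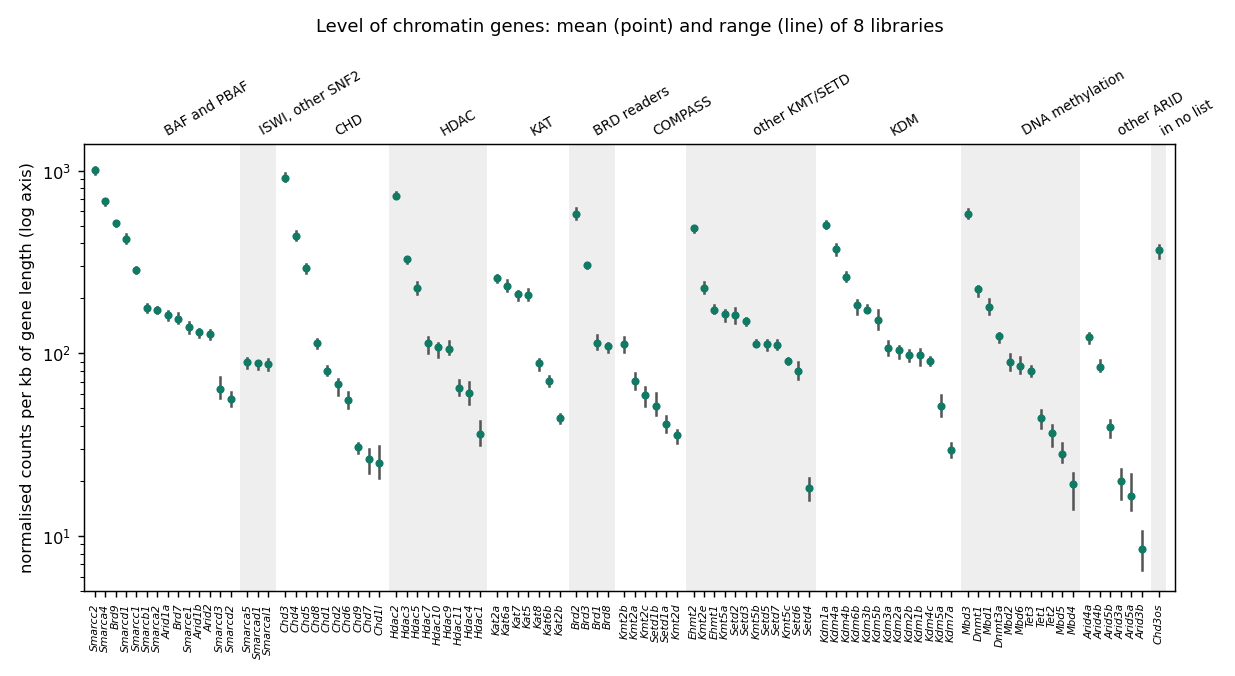
Level of the chromatin genes drawn, as normalised counts per kilobase on a log axis, grouped by complex or family (*Brd7* and *Brd9* with BAF), as the mean (point) and range (line) of the 8 libraries. *Smarcc2* is the highest at 1006.2 and *Arid3b* the lowest at 8.511.

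Several pairs of close relatives differed far more in level per kilobase than either gene differed between the genotypes. *Hdac2*, at 704.3 to 765.3 over the 8 libraries, was far above *Hdac1*, at 31.37 to 42.75. In the BAF complex, *Smarcc2* was above *Smarcc1* at 286.1, *Smarca4* was above *Smarca2* at 173.5, and *Smarcd1* at 421.0 was above *Smarcd3* at 64.14 and *Smarcd2* at 56.50. The neuronal subunit genes *Actl6b* and *Ss18l1* were at 319.2 and 380.8, and their progenitor counterparts *Actl6a* and *Ss18* at 51.72 and 65.13. The neuronal *Dpf1* was at 202.3 and *Dpf3* at 42.38, beside 188.9 for *Phf10*, the counterpart in progenitors. *Dpf1* and *Phf10* did not stand apart, with overlapping ranges of 191.1 to 215.7 and 186.1 to 195 over the libraries. Within NuRD, *Chd3* was above *Chd4* at 440.0 and *Chd5* at 292.6. *Dnmt1* at 223.5 was above *Dnmt3a* at 124.3, and *Tet3* at 79.85 was above *Tet1* at 44.46 and *Tet2*, whose ranges of 39.14 to 49.19 and 30.98 to 40.32 overlapped. None of these BAF subunit genes was called between KO_CSPG and WT_CSPG.

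The 6 genes that the names matched on the sex chromosomes were read apart, because the Y-linked genes and *Xist* differed between the groups. *Kdm5d*, the Y-linked demethylase of H3 lysine 4, was at 298.2 ± 16.7 in WT_CSPG and 175.2 ± 12.22 in KO_CSPG (SD, n = 4 each), with a log2 fold change of -0.76 (adjusted p = 2.7e-07, limma). Its X-linked counterpart *Kdm5c* was at 0.06, *Kdm6a* at 0.09, *Hdac6* at 0.03, *Hdac8* at 0.13 and *Smarca1* at 0.05, and none of these 5 was called. Genotype accounted for 91.24% of the variance of the Y-linked level over the libraries, so the effects of genotype and of sex cannot be told apart here. With the Y-linked level as a covariate in limma, 0 of the 97 genes and 2 of 12012 were called. In that fit 68 of the 97 were below 0, beside 50.7% of all genes. Their median was -0.10, beside -0.0042 over all genes. The sign of *Mbd5* turned in that fit, to -0.03, and *Hdac4* kept its sign with an adjusted p of 0.85.

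Apart from *Hdac4*, no call held in every fit that left out 1 library. *Hdac4* was called in each of the 8 fits that left out 1 library. *Kdm5b* was not called without WT_CSPG A, WT_CSPG B, WT_CSPG C, KO_CSPG A or KO_CSPG C, *Mbd5* not without WT_CSPG A, WT_CSPG C, WT_CSPG D, KO_CSPG A, KO_CSPG B or KO_CSPG D, and *Tet2* not without WT_CSPG A, WT_CSPG C, WT_CSPG D, KO_CSPG A, KO_CSPG B or KO_CSPG D. Between 1 and 4 of the 97 genes were called in these fits, beside 1.55% to 4.8% of all genes. Some were called lower only there: *Arid5a* without WT_CSPG B, *Setd1b* without WT_CSPG C, *Kdm3a* without WT_CSPG D and *Kdm4a* without KO_CSPG D. In these fits 68 to 73 of the 97 genes were below 0, beside 49.6% to 50.3% of all genes.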

How the data were processed

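Poly-A RNA from hippocampal cultures was sequenced by the authors as single reads, and the submitters' processing notes name the build mm10 and DESeq2. The aligner, the counting program and whether strand was used are not given in the sources used here. The authors deposited 1 table of 12012 genes with a normalized signal per library, each gene's reads over the size factor of the library. It covers 8 of 18 labelled libraries, and the other 10 (WT, KO and WT_CSPG E) were not analysed here. The authors also deposited their DESeq2 comparison of KO_CSPG with WT_CSPG, a log2 fold change with its standard error, a Wald score, a p-value and its adjusted value, and none of these was used.

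Every value was a whole multiple of 1 step within 0.001 read, which gave the depth. No gene has a mean under 40.68, so genes at low levels are not covered. Values were taken as log2(value + 1) and fitted over all genes with limma 3.58.1 in R 4.3.3 (trend and robust, Benjamini-Hochberg adjustment over 12012 genes, 95% intervals), and a gene was called at an adjusted p under 0.05. The analysis had been planned with models for counts as alternatives. These were not run, although the values are whole multiples of a step from which reads could be recovered. Alternatives were other pseudocounts, a minimum mean of 100, upper-quartile scaling, other priors, a block on the library letter, a Y-linked covariate, removal of a trend on length and leaving out each library. In simulated data for this comparison, over 12012 genes, 83 of 100 genes changed by a log2 value of 0.5 were called. So were 96 of 100 genes changed by 1 and 5 of 11812 unchanged genes. Changes smaller than 0.5 were not simulated. The chromatin genes had log2 fold changes between -0.27 and 0.19, so the simulation does not say how often changes of their size are called.

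The members, complexes and partner lists were chosen with earlier results of these data known. Named are the genes called, the highest and lowest of each list, the 5 uncalled genes with the smallest p, the 5 highest and 5 lowest per kilobase, called partners, and the sex-linked matches. Other relatives and partners named beside them were picked with their values in view. The name rule took genes by symbol, and *Kdm4d*, *Kdm8*, *Dnmt3b*, *Dnmt3l*, *Arid3c*, *Ing4* and *Gadd45a* were listed and had no value. Some genes of the lists are counted but not reported here by name or drawn in the figures. Cell type genes were read in lists of neurons, oligodendrocyte lineage, astrocytes and radial glia, microglia (4 of 8 with a value, sums of 1094.5 to 1228.8 in WT_CSPG and 1137.6 to 1352.5 in KO_CSPG), fibroblasts and mural cells (6 of 8, 439.3 to 873.9 and 576.6 to 1366.9), endothelium (0 of 5) and proliferating progenitors (8 of 8, 2913.2 to 3112.2 and 2932.0 to 3112.4). Exon overlaps came from GENCODE M21, to which all 97 genes matched, and promoter windows from RefSeq on GRCm38.p6.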

Additional observations from a re-analysis of the deposited data

Results flagged for a closer look

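Among 35 named chromatin genes, each group of 4 libraries was examined for a library far from the other 3 (Dixon's test at 95%), which gave 3 of 70 groups, where 3.5 would be flagged by chance at 1 in 20. *Hdac1* was at 147.3 normalised counts in WT_CSPG B, and between 125.3 and 128.5 in the other WT_CSPG libraries. *Setd2* was at 1907.1 in WT_CSPG B, and between 1751.3 and 1772.2 in the others. *Mbd4* was at 90.7 in WT_CSPG D, and between 100.9 and 102.9 in the others. None of the 3 genes was called.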

How the results depend on the processing

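The count of called chromatin genes was 4 of 97, and it stayed at 4 with a pseudocount of 0.1 or 10, with a mean of at least 100 (4 of 95), without the robust prior and with the replicate block. It was 3 with upper-quartile scaling and with the length trend removed, 1 without a trend of the prior variance and 0 with the Y-linked covariate. Over the whole table, 346 genes were called, beside 80 without that trend and 2 with the covariate. Leaving out 1 library gave 1 to 4 chromatin genes and 186 to 576 genes of the table, the lowest without KO_CSPG A and the highest without WT_CSPG D. Of the 346 genes, 131 were higher and 215 lower, and the split was 182 to 178 with upper-quartile scaling and 286 to 290 without WT_CSPG D. Upper-quartile scaling moved the median of all genes to 0.0124, and 69 of the 97 genes were then below 0. The labels do not say whether the library letters pair the samples. Correlations of the deviations were -0.0737, 0.09565, 0.275 and -0.005079 for A to D. The replicate block gave 4 chromatin genes and 429 genes of the table, beside 346 without it. Count models and TMM scaling on recovered reads were not run. The level per kilobase ranked much alike with exon lengths from GENCODE M21, with a Spearman rho of 0.9722 over the 97 genes as a description. Single genes moved far, such as *Mbd1* from rank 28 to 68.

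*Hdac4* was called in every setting but the covariate, where its adjusted p was 0.85. Among the named genes, 534 comparisons with an alternative kept direction and side of the threshold, 25 lost a call, 4 gained one and 30 changed sign. Log2 fold changes turned, in the fit with Y-linked genes as covariate, to -0.0258 for *Mbd5*, -0.2904 for *Chd7*, 0.0436 for *Brd1*, -0.0010 for *Setd6*, 0.0950 for *Arid3b*, -0.0670 for *Mbd4* and 0.0839 for *Hdac2*. With the length trend removed it turned to 0.0054 for *Kmt2d*, 0.0082 for *Arid3b* and -0.0017 for *Mbd3*, and with upper-quartile scaling to 0.0103 for *Arid3b*. Leaving out 1 library gave ranges across 0 of -0.0323 to 0.0077 for *Hdac2*, -0.0328 to 0.0271 for *Smarca5*, -0.0223 to 0.0743 for *Mbd2*, -0.0627 to 0.0129 for *Kmt2d*, -0.0712 to 0.1169 for *Arid3b*, -0.0488 to 0.083 for *Setd4*, -0.046 to 0.004 for *Chd3*, -0.0213 to 0.1949 for *Mbd4* and -0.0069 to 0.0425 for *Mbd3*. The cause of these changes was not tested. The standard errors were above 0.1 for genes near 100 normalised counts, and the part of depth in this was not tested.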
